A study of Rattus norvegicus with 46 samples.

Results

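CagriSema was set against vehicle in the quadriceps muscle of rats, over every gene that passed a filter on low counts. The comparison used 15 of the 46 libraries of the series, CagriSema libraries 33 to 40 (n = 8) and vehicle libraries 1, 2, 4, 5, 6, 7 and 8 (n = 7), chosen by the tissue and treatment in their labels. Of 32552 genes in the count table, 12471 passed the filter and were tested. All groups were WT DIO rats, that is, rats of unmodified genotype made obese by diet. CagriSema combines cagrilintide, which mimics the pancreatic hormone amylin, with semaglutide, which activates the receptor for glucagon-like peptide 1. The treatment lasted 20 days in the design text, which names liver alone, and no label states dose, age or sex. A further 8 quadriceps libraries, 25 to 32, came from rats whose food was restricted to match their weight. They entered the same fit and are set beside single genes below. Whether every library is a separate rat is not stated, so p-values measure the spread between libraries, which may be partly technical.

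Each muscle fibre is wrapped in a basement membrane, a sheet of type IV collagen and laminin tied together by nidogens and perlecan. Between the fibres lies a looser matrix of fibrillar collagens, which fibroblast-like cells secrete and lysyl oxidases crosslink. Sparc, a secreted protein that binds collagens, is found in both. Muscle is also the main tissue that takes up glucose in response to insulin and stores it as glycogen, and its fast and slow fibres differ in myosin and in mitochondrial content.

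Totals were 11462369 to 16525274 counts per library, and levels are given as CPM, that is, counts relative to the scaled size of the library. Myonuclear markers, 9 of 12 tested, summed to 154500 to 188820 CPM in CagriSema libraries and 120070 to 190140 CPM in vehicle libraries, and the muscle creatine kinase gene Ckm was at 21484 ± 1630 CPM and 18212 ± 3353 CPM (SD, n = 8 and 7). Libraries of the vehicle group stood apart. The share of mitochondrially encoded genes was 12.5% to 17.1% in CagriSema libraries, 22.8% in vehicle library 8 and 10.96% to 18.96% in the other vehicle libraries. In a principal component analysis of the 23 quadriceps libraries, the CagriSema libraries had values between -7.26 and 16.1 on component 2, vehicle libraries 2 and 5 had -43.9 and -40.5, and no other vehicle library was below -13.1. The call counts and the gene lists are therefore given with and without vehicle libraries 2 and 5, as are single genes whose value moved by over 1.5 times. In bulk tissue, fewer cells of a type and less RNA per cell cannot be told apart.

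In CagriSema muscle 4 genes fell and 0 rose. Sparc, Col4a1 and Col4a2, the last 2 encoding the main chains of type IV collagen, are genes of the basement membrane list, and Larp7 encodes a protein that binds and stabilizes the small nuclear RNA 7SK. Sparc fell by 37.3%, Col4a2 by 33.8%, Col4a1 by 33.5% and Larp7 by 26.4%. The 4 lower genes were 0.0321% of those tested and the higher ones 0%, in the quasi-likelihood test of edgeR at a Benjamini-Hochberg adjusted p under 0.05. At an unadjusted p under 0.05 there were 820 lower genes, 6.58%, and 467 higher genes, 3.74%. DESeq2 called 32 lower and 4 higher genes, and limma voom called 0, with 1188 genes at an unadjusted p under 0.05.

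Sparc (ENSRNOG00000012840) had a lowest level of 187, a median of 197 and a highest of 234 CPM in CagriSema libraries, against 211, 327 and 421 CPM in vehicle libraries. Of the CagriSema libraries 6 were below the lowest vehicle library, which was library 1, and the next vehicle library was at 304 CPM. The log2 fold change was -0.67 ± 0.12 (SE, adjusted p = 0.0391). Col4a1 (ENSRNOG00000016281) had 57.4, 73.3 and 85.5 CPM in CagriSema libraries, against 78.0, 106 and 144 CPM in vehicle libraries. Again 6 CagriSema libraries were below vehicle library 1, the lowest of its group. Its log2 fold change was -0.59 ± 0.11 (adjusted p = 0.0391).

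Col4a2 (ENSRNOG00000023972), whose chain pairs with that of Col4a1 in the same collagen molecule, had 41.1, 52.6 and 65.4 CPM in CagriSema libraries, against 61.6, 78.1 and 102 CPM in vehicle libraries. Its groups overlapped in the same way, through vehicle library 1, and the log2 fold change was -0.59 ± 0.11 (adjusted p = 0.0397). Larp7 (ENSRNOG00000048989) had 12.0, 13.4 and 15.03 CPM in CagriSema libraries, against 16.1, 18.4 and 19.6 CPM in vehicle libraries. Every CagriSema library was below every vehicle library for Larp7, at a log2 fold change of -0.44 ± 0.08 (adjusted p = 0.0391).

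**Figure D1:**
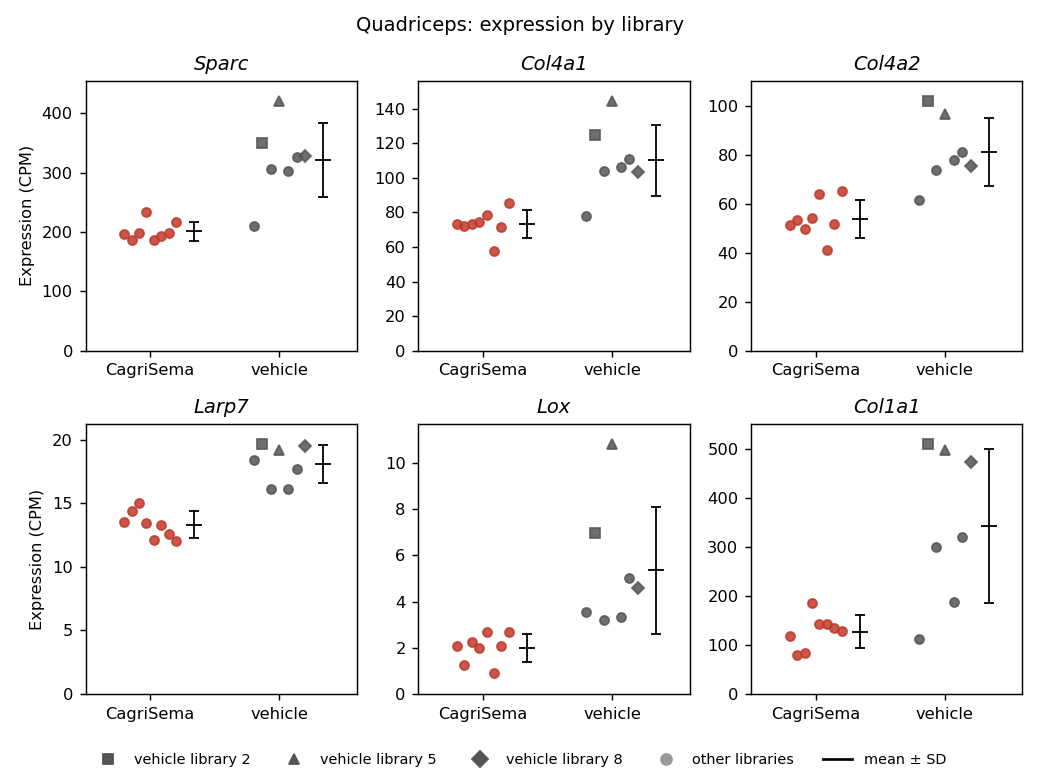
Expression in CPM of 6 genes in each of 8 CagriSema libraries and 7 vehicle libraries, on linear axes from 0, with the mean ± SD of each group at its right and vehicle libraries 2, 5 and 8 marked by symbol. Larp7 and Lox show no overlap between the groups, and Sparc, Col4a1 and Col4a2 overlap through the lowest vehicle library.

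Without vehicle libraries 2 and 5, 0 of 12597 genes passed, 0%, and the lowest adjusted p was 0.256, that of Msx1, a homeobox gene. At an unadjusted p under 0.05 that fit had 320 lower genes, 2.54%, and 283 higher genes, 2.25%. Sparc then stood at -0.55 (adjusted p = 0.328), Larp7 at -0.40 (adjusted p = 0.328), Col4a1 at -0.45 (adjusted p = 0.328) and Col4a2 at -0.46 (adjusted p = 0.441), all log2 fold changes. The count was 0 as well without vehicle library 2 or 5 alone, without vehicle library 7 and without any single CagriSema library, and it was 6 or 7 without vehicle libraries 1, 4, 6 or 8.

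Sparc was at 201 ± 16.2 CPM in CagriSema muscle and 170 ± 34.8 CPM in weight-matched muscle, against 321 ± 62.7 CPM in vehicle muscle (SD, n = 8, 8 and 7). Col4a1 was at 73.2 ± 7.87, 59.6 ± 8.96 and 110 ± 20.5 CPM in the same order of groups, and Larp7 at 13.3 ± 1.06, 14.4 ± 1.90 and 18.1 ± 1.51 CPM. None of the 4 genes passed between CagriSema and weight matching, where 16 genes did, 0.128%. For Sparc that log2 fold change was 0.24 ± 0.12 (adjusted p = 0.651), for Col4a1 0.30 ± 0.10 (adjusted p = 0.483), for Col4a2 0.30 ± 0.11 (adjusted p = 0.502) and for Larp7 -0.12 ± 0.08 (adjusted p = 0.747). Against vehicle, weight matching had 285 genes past the same test, 2.29%. Among them Sparc stood at -0.91 (adjusted p = 0.000238), Col4a1 at -0.89 (adjusted p = 0.000128), Col4a2 at -0.89 (adjusted p = 0.000128) and Larp7 at -0.32 (adjusted p = 0.0319). Both comparisons use the same vehicle libraries.

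Col4a1 and Col4a2 are neighbours that are read in opposite directions from starts 76 bases apart in RefSeq's annotation of the rat assembly GRCr8. Of 13772 genes on the plus strand of that table, 1.74% have a minus-strand start at least as near behind them. Their promoter windows, 250 bases before to 50 after the start, share 176 bases, which are shown with the windows of Sparc and Larp7 because these are the 4 genes that passed. Capitals mark the GC box, spelled GGGCGG, the CCAAT box, spelled by its name, and the TATA box, spelled TATAAA, all searched on both strands, and no match overlaps another. The shared stretch at chr16:84885471-84885646 is given on the plus strand, that of Col4a1. Sparc lies at chr10:40038767-40039066 and Larp7 at chr2:218687259-218687558, both on the minus strand.
Col4a1 and Col4a2 shared: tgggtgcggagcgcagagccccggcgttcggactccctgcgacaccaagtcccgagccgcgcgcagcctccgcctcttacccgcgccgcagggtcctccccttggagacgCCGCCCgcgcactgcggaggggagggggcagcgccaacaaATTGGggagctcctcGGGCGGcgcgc
Sparc: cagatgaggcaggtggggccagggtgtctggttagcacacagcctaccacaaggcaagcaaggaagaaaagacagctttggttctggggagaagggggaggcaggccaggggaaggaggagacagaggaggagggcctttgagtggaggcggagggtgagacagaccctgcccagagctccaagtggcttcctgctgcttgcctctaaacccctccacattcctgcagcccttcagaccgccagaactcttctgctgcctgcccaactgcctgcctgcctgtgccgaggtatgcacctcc
Larp7: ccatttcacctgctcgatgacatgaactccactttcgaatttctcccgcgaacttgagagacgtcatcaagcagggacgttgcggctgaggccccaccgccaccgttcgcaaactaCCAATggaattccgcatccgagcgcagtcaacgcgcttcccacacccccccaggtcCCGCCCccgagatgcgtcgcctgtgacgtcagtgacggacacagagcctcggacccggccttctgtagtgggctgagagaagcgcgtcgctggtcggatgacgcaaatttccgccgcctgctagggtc
The shared stretch holds 2 GC boxes and 1 CCAAT box. The window of Larp7 holds 1 of each, and that of Sparc none of the 3 motifs. Among 27457 such windows of rat genes, 34.9% hold a GC box, 37.7% a CCAAT box and 14.3% a TATA box. In the last 176 bases of those windows, the length of the shared stretch, the shares are 29.2%, 25.2% and 8.4% for the same 3 motifs. A match is a description of the letters and not a binding site, and these data do not bear on any factor.

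The basement membrane list had 20 tested genes of 21, and 18 of their log2 fold changes were negative, with a median of -0.26, against -0.01 over all genes tested. At an unadjusted p under 0.05, 9 were lower and 0 higher. Over all genes tested, 6.58% were lower and 3.74% higher at that p, and 6497 of 12471 log2 fold changes were negative. In the fit without vehicle libraries 2 and 5 those shares were 2.54% and 2.25%. The counts of every list below stand against these shares. Beside Sparc, Col4a1 and Col4a2, which passed over all genes, Lamc1 (the laminin gamma 1 chain) stood at -0.29 ± 0.09 and Lama4 (a laminin alpha chain of vessels) at -0.34 ± 0.12, with adjusted p of 0.278 and 0.335 by edgeR. Col18a1 and Col15a1, collagens of basement membrane zones, stood at -0.41 and -0.34. Other main components of the membrane were nearer to 0, with Hspg2 (perlecan) at -0.11, Nid1 (nidogen 1) at -0.24, Lama2 (the laminin alpha chain of muscle fibres) at -0.07 and Agrn (agrin, which clusters acetylcholine receptors) at 0.00. Without vehicle libraries 2 and 5 the median was -0.18, with 6 lower and 0 higher, and Lamc1 stood at -0.15, Lama2 at -0.02 and Agrn at -0.01. Genes of this paragraph other than the 3 that passed were chosen after their values were seen, save Col15a1.

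Fibrillar and other collagens had 17 tested genes of 20, and Col15a1 and Col18a1 are counted both here and in the basement membrane list. Of the 17 tested genes, 16 had a negative log2 fold change, with a median of -0.63. At an unadjusted p under 0.05, 13 were lower and 0 higher, though none passed over all genes. Summed over the list, the lowest, median and highest levels were 453, 636 and 803 CPM in CagriSema libraries, against 877, 1004 and 1913 CPM in vehicle libraries. The groups did not overlap in this sum, and they overlapped in that of every other list. The highest collagen sums were those of vehicle libraries 5 and 2, at 1913 and 1638 CPM, and the other vehicle libraries were between 877 and 1081 CPM. Without these libraries the list's median was -0.36, with 8 lower and 0 higher.

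Col1a1 (ENSRNOG00000003897), the main chain of type I collagen, had 79.3, 132 and 186 CPM as lowest, median and highest in CagriSema libraries, against 112, 320 and 510 CPM in vehicle libraries. Vehicle library 1 lay within the CagriSema range, library 6 was just above it at 187.5 CPM, and the other vehicle libraries were higher. The log2 fold change was -1.43 ± 0.35 (adjusted p = 0.181), and -1.13 without vehicle libraries 2 and 5. The row of its partner chain, Col1a2, held 4 counts over all 23 quadriceps libraries and was not tested. Col3a1 (ENSRNOG00000003357), the type III chain, had 119, 218 and 336 CPM in CagriSema libraries, against 130, 425 and 827 CPM in vehicle libraries, at -1.02 ± 0.28 (adjusted p = 0.236) and -0.63 without libraries 2 and 5. Vehicle libraries 8 and 4 lay within the CagriSema range and the other vehicle libraries were above it.

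The beaded-filament collagen Col6a1 was at 59.6 ± 12.0 CPM in CagriSema muscle and 92.2 ± 22.5 CPM in vehicle muscle, a log2 fold change of -0.63 ± 0.14 (adjusted p = 0.140). Its partner Col6a2, whose values were seen before it was chosen, stood at -0.58 ± 0.14 (adjusted p = 0.181). Col5a3, a chain of the type V collagen that starts fibrils, stood at -0.87 ± 0.20 (adjusted p = 0.181). Without vehicle libraries 2 and 5 the 3 values were -0.42, -0.36 and -0.52. Col14a1, Col22a1 and Col6a6 were nearest to 0 in the list, at -0.31 ± 0.38, -0.03 ± 0.33 and 0.02 ± 0.20, and were chosen for that after their values were seen. In the fit without those libraries they stood at 0.02, -0.12 and -0.06. Weight matching against vehicle had 9 of the 17 collagens past the test, all lower, and CagriSema against weight matching had 0.

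Matrix glycoproteins and crosslinking enzymes had 35 tested genes of 41, of which 33 had a negative log2 fold change. The median was -0.55, with 12 lower and 0 higher at an unadjusted p under 0.05 and none past the test over all genes. Lox (ENSRNOG00000014426), the lysyl oxidase that crosslinks collagen and elastin, had 0.914, 2.08 and 2.68 CPM in CagriSema libraries, against 3.19, 4.60 and 10.8 CPM in vehicle libraries. All CagriSema libraries were below all vehicle libraries, the highest of which were 5 and 2, at 10.8 and 6.98 CPM. The log2 fold change of -1.41 ± 0.28 did not pass (adjusted p = 0.0650), and it was -0.96 without those libraries. Its relative Loxl2 stood at -0.98 ± 0.25 (adjusted p = 0.181) and at -0.49 without them.

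Further members of the crosslinking list, chosen after their values were seen, were Pcolce, an enhancer of procollagen cleavage, at -0.66, Bgn, the small proteoglycan biglycan, at -0.93, Fbn1, the microfibril protein fibrillin 1, at -0.82, and Serpinh1, the collagen chaperone, at -0.55. Decorin (Dcn) and elastin (Eln) stood at -0.12 and the prolyl hydroxylase genes P4ha1 and P4ha2 at 0.00. After removal of vehicle libraries 2 and 5, the list's median was -0.28, with 4 lower and 0 higher. Pcolce then stood at -0.38, Bgn at -0.35, Fbn1 at -0.47, Serpinh1 at -0.28, Dcn at -0.05, Eln at -0.03, P4ha1 at 0.03 and P4ha2 at 0.01. Among matrix proteases and their inhibitors the median was -0.16 over 22 genes, with 2 lower and 0 higher, beside 6.58% and 3.74% over all genes tested. The inhibitor Timp1 was among the 2 (-1.37 ± 0.34, adjusted p = 0.181). Without libraries 2 and 5 the median was -0.08, with 1 lower and 1 higher, beside 2.54% and 2.25% over all genes, and Timp1 stood at -0.69.

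**Figure D2:**
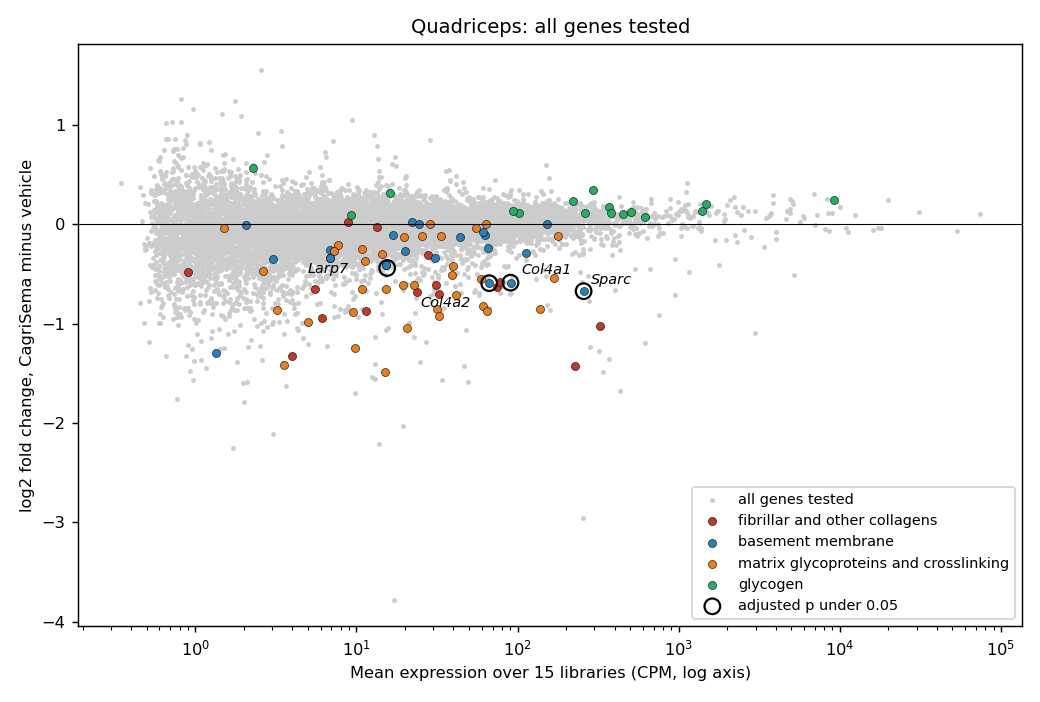
Log2 fold change of CagriSema minus vehicle against mean expression in CPM (log axis) for the 12471 genes tested, with 4 gene lists in colour and the 4 genes past the test circled. Nearly all coloured points of the 3 matrix lists lie below 0, and those of the glycogen list lie above it.

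Markers of matrix-making cells and of tendon are given beside these lists, and their part in the matrix values was not tested. Some of the markers are also members of the matrix lists, so their medians rest partly on the same genes. Among these are Dcn, Lum, Mfap5 and Col15a1 of the fibroblast markers and Fmod, Comp, Chad and Tnmd of the tendon markers. Markers of fibro-adipogenic progenitors and fibroblasts, 14 tested, summed to 722 to 1346 CPM in CagriSema libraries and 868 to 1455 CPM in vehicle libraries. Their median log2 fold change was -0.20, with 3 lower and 0 higher at an unadjusted p under 0.05, beside 6.58% and 3.74% over all genes tested. Leaving out vehicle libraries 2 and 5, their median was -0.07, with 0 lower. Tendon and cartilage markers, 9 tested of 11, summed to 98.0 to 347 CPM in CagriSema libraries and 93.2 to 639 CPM in vehicle libraries, with a median of -0.86 and 1 lower gene, Thbs4 (-0.85 ± 0.33, adjusted p = 0.364). Without vehicle libraries 2 and 5 the tendon median was -0.70, with 0 lower. Among the vehicle libraries, library 1 had the lowest sum of both the tendon and the collagen list, at 93.2 and 877 CPM. Libraries 2 and 5 had tendon sums of 497 and 465.5 CPM and the highest collagen sums, and library 8 had the highest tendon sum, 639 CPM, with a collagen sum of 906 CPM. The cartilage genes Col2a1 and Acan did not pass the filter. Macrophage markers, 13 tested, had a median of -0.24 with all libraries and 0.16 without vehicle libraries 2 and 5, and those of endothelium, 15 tested, -0.08 in both fits.

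Across all genes the effects were small. The 12471 log2 fold changes had a median of -0.01 and a median SE of 0.12, and percentiles 5 and 95 at -0.46 and 0.24. There were 88 genes beyond 1 in either direction, 78 lower and 10 higher. Of the 78 lower ones, 54 (69.2%) had their highest level of the 15 libraries in vehicle library 2 and 14 (17.9%) in vehicle library 5. Over all genes tested those shares were 19.1% and 10.2%. The 78 were taken for being lower in CagriSema libraries, so this is a description only. Without libraries 2 and 5, 9 of the 78 were still beyond -1, and their median was -0.48 without those libraries and -1.26 with them. Of the 10 higher ones, 7 stayed beyond 1.

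Among the named genes, Spp1, Ankrd1 and Tnfrsf12a had the largest negative values, and none of the 3 passed the test. Ankrd1, a titin-binding stress protein of the sarcomere, had 28.5, 43.4 and 184 CPM in CagriSema libraries, against 22.8, 110 and 2570 CPM in vehicle libraries, the last in library 2. Vehicle libraries 1 and 5, at 245 and 260 CPM, were also above the CagriSema range, and the other vehicle libraries lay within or below it. Its log2 fold change was -2.95 ± 0.85 (adjusted p = 0.278) and -0.68 without vehicle libraries 2 and 5. Spp1, the secreted protein osteopontin, stood at -3.78 ± 1.31 (adjusted p = 0.326) and at -0.89 without them, with 201 CPM in vehicle library 2.

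Tnfrsf12a, the receptor of the cytokine TWEAK, stood at -2.21 and -0.14 in the fits with and without vehicle libraries 2 and 5, Xirp1, a repair protein of the sarcomere, at -1.68 and -0.22, and the transcription factor gene Runx1 at -1.54 and -0.01. The small heat shock gene Hspb1 stood at -1.28 and -0.22 and the myogenic factor Myog at -0.99 and 0.22. Each of these had its highest level in vehicle library 2. The heat shock list as a whole had a median of -0.13 over 24 genes, with 7 lower and 0 higher at an unadjusted p under 0.05, against -0.04 with 0 of either without vehicle libraries 2 and 5. Cholesterol synthesis and uptake had -0.15 over 27 genes with 8 lower, against -0.06 with 2 lower without them, and interferon and antigen presentation -0.33 over 31 genes with 7 lower, against -0.05 with 0 lower.

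**Figure D3:**
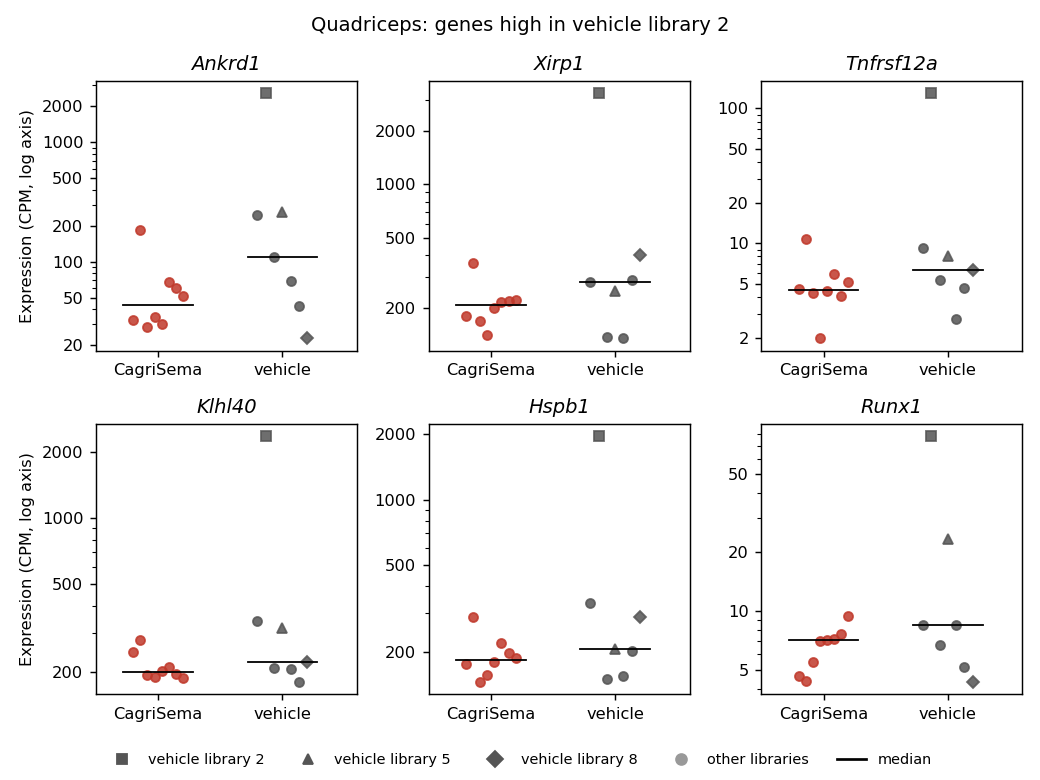
Expression in CPM (log axes) of 6 genes in 8 CagriSema libraries and 7 vehicle libraries, with the median of each group as a line and vehicle libraries 2, 5 and 8 marked by symbol. In all 6 panels vehicle library 2 is the highest point, as its symbol shows.

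No gene passed the test in the higher direction, and the genes given here are those that the naming rule took from that side. Fhl3 (ENSRNOG00000007541), a LIM domain protein of muscle, had 150, 168 and 223 CPM in CagriSema libraries, against 91.1, 114 and 139 CPM in vehicle libraries. All CagriSema libraries were above all vehicle libraries, at a log2 fold change of 0.59 ± 0.13 (adjusted p = 0.166), and of 0.56 without vehicle libraries 2 and 5. Pik3r1, the regulatory subunit of phosphoinositide 3-kinase that carries the insulin signal, was at 43.4 ± 6.44 CPM in CagriSema muscle and 31.8 ± 6.82 CPM in vehicle muscle (0.45 ± 0.11, adjusted p = 0.181). Il15, a cytokine that muscle secretes, was at 22.9 ± 1.15 and 17.4 ± 3.20 CPM (0.39 ± 0.10, adjusted p = 0.181). Fkbp5, a chaperone that glucocorticoids induce, was at 35.9 ± 13.2 and 19.9 ± 4.89 CPM (0.85 ± 0.28, adjusted p = 0.315). In weight matching against vehicle these genes did pass, with Fhl3 at 0.66 (adjusted p = 0.0140) and Pik3r1 at 0.46 (adjusted p = 0.0362). Il15 stood there at 0.58 (adjusted p = 0.00736) and Fkbp5 at 1.39 (adjusted p = 0.0171). None of them passed between CagriSema and weight matching.

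Genes whose groups did not overlap were few. All CagriSema libraries were below all vehicle libraries for 4 genes, 0.0321%, namely Larp7, Lox, Pea15 and Klf4, and above them for 8 genes, 0.0641%. The 8 were Fhl3, Jade2 and Imp3 together with Bola1, Slc2a12, Tmed4, Dhx57 and 1 gene without a proper symbol, and these last 5 were chosen after their values were seen. Pea15, a small protein that binds the kinase ERK, had 18.6, 22.2 and 23.1 CPM in CagriSema libraries, against 24.1, 27.6 and 41.4 CPM in vehicle libraries (-0.51 ± 0.10, adjusted p = 0.0650), and stood at -0.30 without vehicle libraries 2 and 5.

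Klf4 and its relatives came from the immediate early list, genes that cells switch on within minutes of a stimulus, transcription factors among them. Klf4 (ENSRNOG00000016299) had 14.5, 17.8 and 20.0 CPM in CagriSema libraries, against 20.6, 26.4 and 50.4 CPM in vehicle libraries. The CagriSema libraries lay close together below all vehicle libraries, the highest of which was library 8. The log2 fold change was -0.74 ± 0.20 (adjusted p = 0.204), and -0.76 without vehicle libraries 2 and 5. Klf2, a factor that blood flow induces in endothelium, stood at -0.70 and -0.81 in the same fits and Klf6 at -0.40 and -0.31. Klf10 of the same list was nearer to 0, at -0.12 with all libraries. Klf2, Klf6 and Klf10 were chosen after their values were seen. The list had a median of -0.36 over 32 genes, 27 of them negative, with 11 lower and 1 higher at an unadjusted p under 0.05. Without those libraries the median was -0.11, with 3 lower and 2 higher. The shares over all genes were 6.58% lower and 3.74% higher, and 2.54% and 2.25% without those libraries. Jun, Dusp1 and Zfp36, also early genes and chosen after their values were seen, stood at -0.06, 0.00 and -0.07, and at 0.01, 0.05 and -0.17 without those libraries.

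Klf4 was also among the 16 genes past the test between CagriSema and weight matching. It was at 17.8 ± 1.71 CPM in CagriSema muscle and 34.3 ± 11.5 CPM in weight-matched muscle, against 29.9 ± 10.3 CPM in vehicle muscle (SD, n = 8, 8 and 7), and the log2 fold change of CagriSema minus weight matched was -0.95 ± 0.19 (adjusted p = 0.0464). Erfe, the hormone erythroferrone that lowers hepcidin, was at 4.39 ± 1.21 CPM in CagriSema muscle and 1.504 ± 1.03 CPM in weight-matched muscle (1.54 ± 0.29, adjusted p = 0.0230), against 2.29 ± 0.561 CPM in vehicle muscle. Against vehicle its log2 fold change was 0.94 ± 0.29 (adjusted p = 0.288), and 7 of 8 CagriSema libraries were above the highest vehicle library.

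Ucp3, a mitochondrial carrier that fasting and fatty acids induce in muscle, was at 23.4 ± 10.7 CPM in CagriSema muscle and 80.3 ± 45.5 CPM in weight-matched muscle (-1.78 ± 0.35, adjusted p = 0.0464), against 42.7 ± 13.5 CPM in vehicle muscle. Slc25a25, a mitochondrial carrier of ATP and phosphate, was at 40.8 ± 11.6 and 128 ± 34.5 CPM in CagriSema and weight-matched muscle (-1.65 ± 0.25, adjusted p = 0.00986), against 59.2 ± 28.002 CPM in vehicle muscle. Both genes were lower with CagriSema than with weight matching. Against vehicle, CagriSema stood at -0.87 ± 0.36 for Ucp3 (adjusted p = 0.397) and at -0.54 ± 0.26 for Slc25a25 (adjusted p = 0.479), neither past the test. Pdk4, the kinase that keeps pyruvate from oxidation, was at 205 ± 108 CPM in CagriSema muscle and 546 ± 307 CPM in weight-matched muscle, against 306 ± 125 CPM in vehicle muscle, and passed neither test for CagriSema (adjusted p = 0.213 against weight matching and 0.585 against vehicle).

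**Figure D4:**
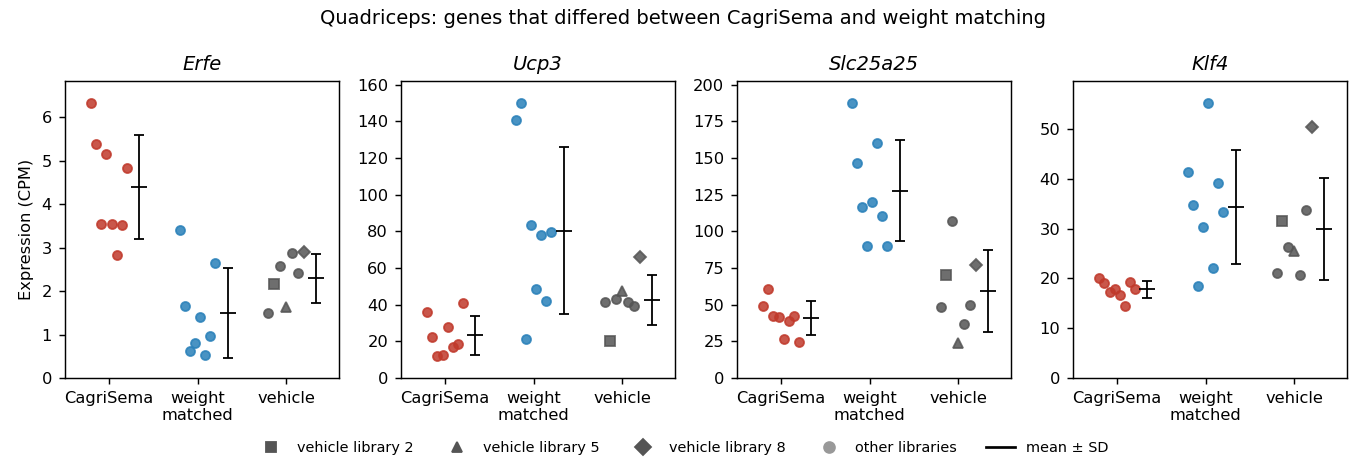
Expression in CPM of 4 genes in CagriSema (8 libraries), weight-matched (8) and vehicle (7) quadriceps, on linear axes from 0, with the mean ± SD of each group at its right. The mean of Erfe is highest in CagriSema libraries, the means of Ucp3 and Slc25a25 are highest in weight-matched libraries, and the CagriSema libraries of Klf4 lie between 14.5 and 20.0 CPM.

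Genes of glycogen and glycolysis had mostly positive values, and no gene of these lists passed the test. All 16 glycogen genes had a positive log2 fold change, with a median of 0.13 and 2 higher at an unadjusted p under 0.05. Among all 12471 genes tested 5974 were positive, and 3.74% were higher and 6.58% lower at that p. The 2 glycogen genes were Epm2a, the glycogen phosphatase laforin (0.31 ± 0.11, adjusted p = 0.338), and Ppp1r3b, which directs a phosphatase to glycogen (0.57 ± 0.21, adjusted p = 0.344). When vehicle libraries 2 and 5 were left out, the median was 0.09, with 1 higher, and Epm2a stood at 0.18. Of 26 glycolysis and lactate genes, 19 were positive and 7 negative, with a median of 0.17 and 5 higher and 1 lower. Pfkm, the muscle phosphofructokinase, was at 4194 ± 322 CPM in CagriSema muscle and 3431 ± 613 CPM in vehicle muscle (0.29 ± 0.09, adjusted p = 0.307), and Hk1, a hexokinase of other tissues, stood at -0.56 ± 0.16 (adjusted p = 0.263). The insulin-responsive glucose transporter gene Slc2a4 stood at 0.22 ± 0.11 (adjusted p = 0.486). After removal of vehicle libraries 2 and 5, the list's median was 0.10, with 2 higher and 1 lower, and Pfkm stood at 0.17, Hk1 at -0.30 and Slc2a4 at 0.14. Over all alternatives the glycogen median ran from 0.02 to 0.23 and the glycolysis median from 0.06 to 0.22. Glycogen genes summed to 14492 to 18585 CPM in CagriSema libraries. Vehicle libraries 5, 8, 7 and 2 had sums of 10463, 10936, 12402 and 12952 CPM, and vehicle libraries 4, 6 and 1 had 16534, 17419 and 18733 CPM.

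Fibre type genes were spread more widely between libraries than between groups. Myh7, the myosin of slow fibres, had 1039, 2701 and 4098 CPM in CagriSema libraries, against 301, 1193 and 6794 CPM in vehicle libraries, and Myh4, the myosin of the fastest fibres, 66780, 77760 and 86250 CPM, against 49930, 80880 and 87940 CPM. The vehicle range enclosed the CagriSema range for both, and the log2 fold change of Myh7 was -0.13, or -0.21 without vehicle libraries 2 and 5. Slow fibre genes had a median of -0.13 over 15 genes with 0 past an unadjusted p under 0.05, which was also -0.13 without vehicle libraries 2 and 5 and 0.19 without vehicle library 8. The summed level of this list had a median of 14315 CPM in CagriSema libraries and 11522 CPM in vehicle libraries. Its highest vehicle sums were 26404 CPM in library 8 and 23530 CPM in library 7. Weight matching against vehicle had a median of -0.97 in the same list, with 0 genes past the test. Fast fibre genes had 15 of 16 positive, a median of 0.12 and 1 higher, Tnni2 (0.21 ± 0.09, adjusted p = 0.398), beside 3.74% higher over all genes tested. The fit without vehicle libraries 2 and 5 had 0.10 with 0 higher. Over all alternatives the list's median ran from -0.02 to 0.19. Summed over the list, the median level was 149940 CPM in CagriSema libraries and 150960 CPM in vehicle libraries.

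Nuclear genes of oxidative phosphorylation had 69 of 74 positive values with a median of 0.10, and 4 higher and 0 lower at an unadjusted p under 0.05. Over all genes tested 5974 of 12471 values were positive, with 3.74% higher and 6.58% lower at that p. Leaving out vehicle libraries 2 and 5, the median was 0.01, with 0 of either, beside 2.25% higher and 2.54% lower over all genes. Fatty acid uptake and oxidation had a median of 0.11 over 42 genes, against 0.00 without those libraries. The 13 mitochondrially encoded genes were all negative with a median of -0.07, which was -0.20 without vehicle libraries 2 and 5 and 0.05 without vehicle library 8. Ppargc1a, the coactivator that drives mitochondrial biogenesis, stood at 0.32 ± 0.13 (adjusted p = 0.369), and at 0.20 without vehicle libraries 2 and 5. Its relative Ppargc1b went the other way, at -0.40 ± 0.14 (adjusted p = 0.316) and -0.42 without those libraries. The list of mitochondrial biogenesis and dynamics had a median of 0.03 over 22 genes, with 1 lower and 4 higher. Without those libraries it had 0.02, with 1 lower and 1 higher.

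Genes of muscle wasting did not pass. Atrophy and autophagy genes had a median of -0.04 over 44 genes, with 3 lower and 1 higher at an unadjusted p under 0.05, beside 6.58% lower and 3.74% higher over all genes tested. In the fit without vehicle libraries 2 and 5 the median was -0.02, with 5 lower and 0 higher, beside 2.54% and 2.25% over all genes. The ubiquitin ligase genes Trim63 and Fbxo32 stood at -0.15 ± 0.12 (adjusted p = 0.703) and -0.26 ± 0.20 (adjusted p = 0.673), the last at -0.42 without those libraries (adjusted p = 0.998), and Mstn, the growth inhibitor myostatin, at 0.21 ± 0.30 (adjusted p = 0.833).

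Of the receptors that the drug's components bind, Glp1r had 0 counts in all 15 libraries, which allows up to 0.183 to 0.255 CPM in a library, taking 3 counts as the limit. Calcr, the calcitonin receptor that forms amylin receptors together with Ramp proteins, was at 0.572 ± 0.241 CPM in CagriSema muscle and 0.681 ± 0.255 CPM in vehicle muscle. Ramp1 was at 14.3 ± 3.05 and 16.2 ± 9.45 CPM, and Ramp2 at 8.29 ± 0.696 and 7.59 ± 2.03 CPM. None of the 3 passed the test, with adjusted p of 0.809, 0.861 and 0.788 by edgeR. Their log2 fold changes were -0.26, -0.17 and 0.13, and -0.46, -0.26 and 0.26 without vehicle libraries 2 and 5. Ramp3, with 34 counts over the 15 libraries, did not pass the filter, and neither did Ucp1, with 1 count. Dio2, Atp2a1, Myh1 and Myh2 were not analysed here.

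**Figure D5:**
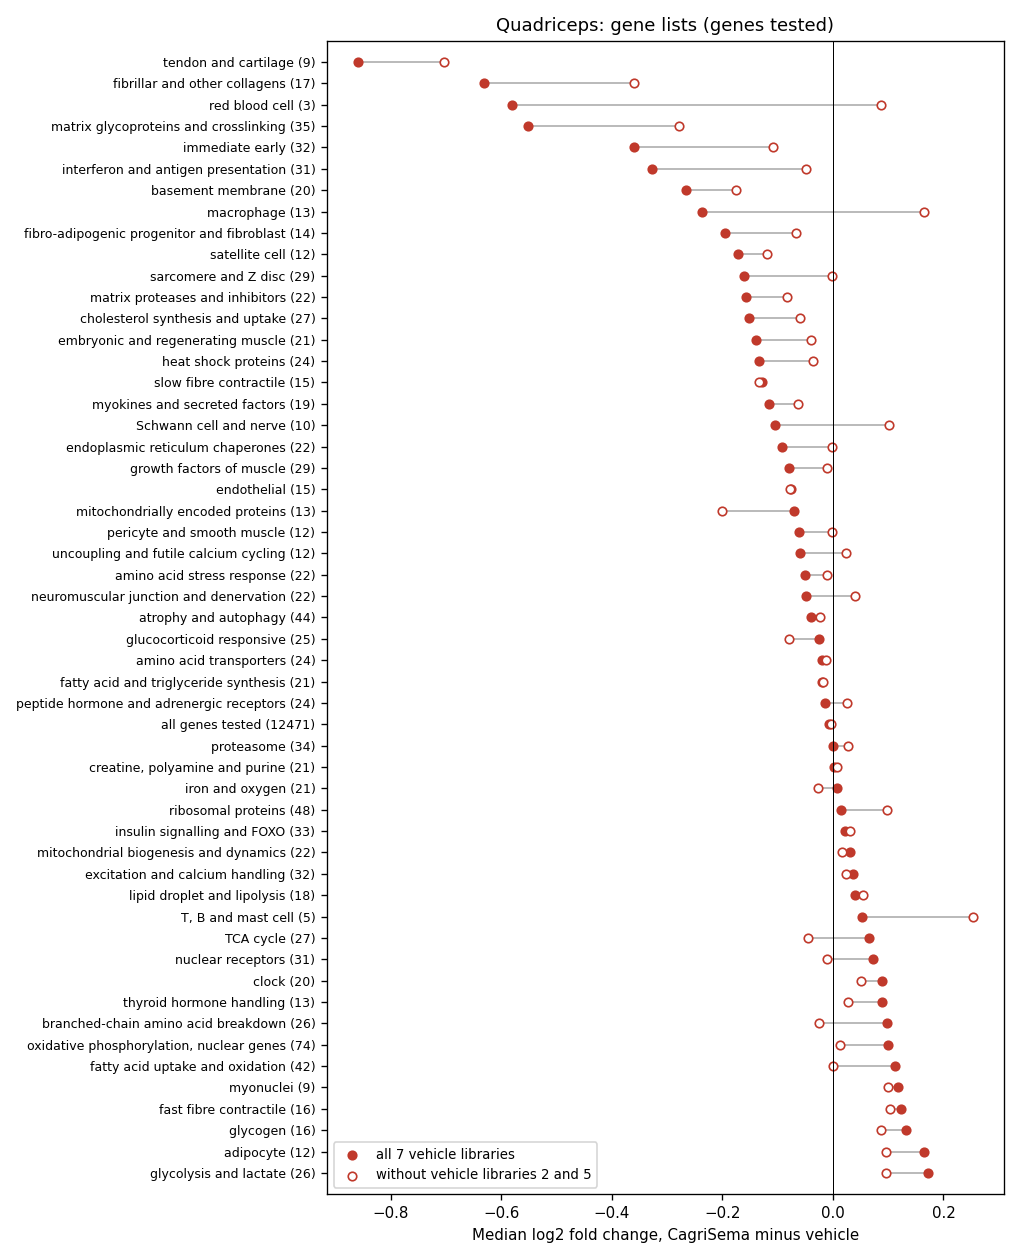
Median log2 fold change of CagriSema minus vehicle for 52 gene lists and for all genes tested, with the number of genes tested in brackets. Filled points use all 7 vehicle libraries and open points leave out vehicle libraries 2 and 5. The lists of tendon and cartilage, fibrillar and other collagens, and matrix glycoproteins and crosslinking have the lowest filled medians apart from red blood cell markers. Of the 52 open points, 40 lie nearer to 0 than their filled ones.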

How the data were processed

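RNA of rat quadriceps was extracted with an RNeasy Minikit and sequenced with a Twist UMI system, per the labels' protocols. The deposited table holds whole-number counts per gene and library, and the submitters' processing notes name fastp 0.23.1 and STAR 2.5.2b. For build, annotation, counting program and use of UMIs, the sources used here give nothing. Each column was assigned by its library's title, which left 1 unassigned count column out. Totals over the 15 libraries were 11462369 to 16525274 counts.

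From the deposited counts, genes were filtered with filterByExpr, scaled by TMM and fitted over 3 groups and 23 libraries with edgeR's robust quasi-likelihood test (edgeR 4.0.16, limma 3.58.1, DESeq2 1.42.0, R 4.3.3, figures in matplotlib 3.10.9). A gene was called at a Benjamini-Hochberg adjusted p under 0.05. Standard errors are the log2 fold change divided by the root of F. CPM used the scaled library sizes, and a count of 0 stayed 0 in all levels and fits. The limit of 3 counts is only stated beside the 0 counts of Glp1r, and it covers counting error only. The steps were tested on simulated data. Among 253 pairs of libraries, chi-square over degrees of freedom was at least 4.81, so no library was counted as a repeat.

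The 52 lists hold 1188 genes, of which 36 were not analysed here and 5 were matched by an older symbol or a reference table. List medians and counts are descriptions without a test. Members and lists were chosen with earlier results of these data known. Genes were named by a rule among those of at least 1 CPM with a proper symbol: those called or, per direction, up to 10 of lowest p, the 10 largest changes of each sign at an unadjusted p under 0.01 that kept their sign when each library was left out, up to 2 of lowest p per list at p under 0.05, and genes fixed by name. It gave 116 genes, of which some are not reported here, and others are marked as chosen after their values were seen. Alternatives changed the libraries left out, the samples fitted, the scaling, the filter and the tool.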

Additional observations from a re-analysis of the deposited data

Results flagged for a closer look

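Dixon's criterion was applied to 232 sets of libraries, the CagriSema and the vehicle group for each of 113 named genes and 3 measures of the libraries. In 34 sets a library's distance from its nearest neighbour was large for the range of its group. The criterion's rate of about 1 in 20 holds for independent sets not picked by their values. Many of these genes were named for their values in the same libraries, so the 34 cannot be set against that rate. Each value below is followed by that of the nearest library of the same group.

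CagriSema library 34 stood above the rest of its group for Ankrd1 (184 against 67.2 CPM), Tnfrsf12a (10.8 against 5.9 CPM), Ptprn (2.73 against 1.62 CPM), Xirp1 (360 against 221 CPM) and Ppp1r3b (4.58 against 2.96 CPM), and below it for Aco1 (53.5 against 62.9 CPM). CagriSema library 38 was the highest for Imp3 (14.6 against 13.6 CPM) and Stac3 (348 against 314 CPM), CagriSema library 40 the highest for Mthfd2 (1.59 against 0.914 CPM), and CagriSema library 33 the lowest for Ramp1 (7.13 against 14 CPM).

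Vehicle library 2 was the highest of its group for Spp1 (201 against 14.1 CPM), Ankrd1 (2570 against 260 CPM), Tnfrsf12a (130 against 9.24 CPM), Ptprn (20.5 against 7 CPM), PVR (150 against 23.1 CPM), Xirp1 (3280 against 400 CPM), Pstpip1 (10.9 against 3.04 CPM) and Baiap2 (13.5 against 4.1 CPM). It was also the highest for Runx1 (77.9 against 23.4 CPM), Fasn (18.8 against 9.05 CPM), Stard4 (5.32 against 3.46 CPM), Hk1 (19.6 against 11.1 CPM), Tgfb2 (127 against 68 CPM) and Gadd45a (143 against 51.3 CPM). Further genes with their highest vehicle value there were Klhl40 (2350 against 342 CPM), Csrnp1 (25.5 against 5.39 CPM), Mthfd2 (4.46 against 1.91 CPM), Sdf2l1 (6.26 against 3.18 CPM), Hspb1 (1950 against 335 CPM) and Hspb8 (1410 against 430 CPM). Vehicle library 5 was the highest for Ucp2 (31 against 16.1 CPM) and Sln (38.3 against 15.9 CPM). The lowest vehicle values were those of library 8 for Imp3 (9.63 against 11.1 CPM) and of library 1 for Ppp1r3b (0.815 against 1.67 CPM).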

How the results depend on the processing

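The count of 4 genes called was 0 without vehicle libraries 2 and 5, 7 without vehicle library 8, 0 without vehicle libraries 2, 5 and 8, 2 in a fit of the CagriSema and vehicle libraries alone, and 0 in that fit without vehicle libraries 2 and 5. It was 0 with scaling by total counts, 36 by DESeq2, 0 by limma voom and 0 by limma voom with quality weights (870 genes at an unadjusted p under 0.05). It was 4 with RLE size factors, upper quartile scaling, TMM without mitochondrially encoded genes and a mean of at least 1 CPM, and 5 with every gene of at least 1 count tested. Leaving out each library in turn gave 0 to 7. The genes at an unadjusted p under 0.05 numbered 1287, against 603, 557 and 587 in the fits without libraries 2 and 5, without 2, 5 and 8, and of 2 groups without 2 and 5. Scaling by total counts gave 1000 lower and 301 higher genes at that p, against 820 and 467 with TMM. The log2 fold change changed sign without vehicle libraries 2 and 5 for Baiap2 (0.032), Gadd45a (0.0124), Myog (0.22) and Sln (0.0733), at 0.0298, 0.00912, 0.22 and 0.0677 with 2 groups fitted. It did so without vehicle library 8 for Ramp1 (0.14), Atp2a2 (0.24) and Myh7 (0.23), and without libraries 2, 5 and 8 for Xirp1 (0.0185), Myog (0.13), Ramp1 (0.15), Atp2a2 (0.29), Myh4 (-0.0365), Myh7 (0.30) and Mstn (-0.0692). By limma voom it was 0.00298 for Ramp1, 0.35 for Atp2a2 and 0.44 for Myh7, and with quality weights 0.12, 0.38 and 0.52. With each library left out in turn, Atp2a2 ranged from -0.22 to 0.26, Myh7 from -0.33 to 0.23 and Ramp1 from -0.27 to 0.14. The cause of these changes was not tested. No paired analysis was possible because library numbers are not shared between the quadriceps groups. Genes of few counts, such as Calcr, are limited by depth.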
